A study of Mus musculus with 4 samples.

Results

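The cells described here were the classical monocytes of mouse peripheral blood, the population with high Ly6c2. They were selected on measured RNA, as cells that held at least 10 UMIs of Lyz2 and at least 2 of Ly6c2, with no UMI of Ace, Treml4 or Cd300e. A UMI is a molecular tag that marks 1 captured transcript. Members were further limited to at most 1 UMI of Cd209a, 4 of C1qa, C1qb and C1qc together, 2 of Cd79a, and 1 of Cd3d, Cd3e and Cd3g together. The rule took 409 of 14588 cells, with 26 of 3902 in young sample 1, 39 of 3857 in young sample 2, 222 of 4642 in old sample 1 and 122 of 2187 in old sample 2. All mice were female C57BL/6, and the only labelled difference was age, 4 months for the young group and 24 months for the old group. Each sample pooled the blood of 2 mice, so each age had n = 2 pools and single mice could not be told apart. The blood had been spun on a density gradient and its red cells lysed before droplet-based sequencing of transcript 3′ ends. The question of the design was what age changes in circulating blood cells, and p-values between ages measured only the spread between these pools.

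Classical monocytes are made in the bone marrow and enter the blood with the help of the chemokine receptor Ccr2. They circulate for a short time, move into inflamed or steadily renewing tissues, and there become macrophages or dendritic-like cells. Some stay in the vessels and convert into nonclassical monocytes, which lose Ly6C, need the nuclear receptor Nr4a1 and patrol the vessel wall. Classical monocytes that arise through the granulocyte branch keep traces of neutrophil granule genes, and those that arise through the dendritic branch carry more MHC class II, the molecules that present antigen to helper T cells.

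The members held 98763 and 149145 UMIs in young samples 1 and 2, and 1072930 and 599218 UMIs in old samples 1 and 2. Their median UMIs per cell were 3898, 3511, 4697 and 4777 in the order young 1, young 2, old 1, old 2, and their median mitochondrial share lay between 2.92% and 3.32%. Over all cells the medians were 2332, 2233, 3186.5 and 3482 UMIs. Of the barcodes, 108 occurred in more than 1 library, and 7 member cells carried 1 of them. Levels below are in CPM, the UMIs of a gene after all UMIs of the members in a sample are scaled to 1000000.

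Genes that the rule did not use followed the label. Ccr2 stood at 1256 and 1066 CPM in the young members and at 1454 and 1495 CPM in the old, against 52.2 to 137 CPM in nonclassical monocytes of the same samples. Those cells were taken by at least 3 UMIs of Lyz2, at most 1 of Ly6c2 and at least 2 of Ace, Treml4 and Cd300e together, and numbered 56, 95, 142 and 47. Chil3, a chitinase-like secreted protein, and F13a1, the coagulation factor XIII A chain, showed the same split. Chil3 reached 1711, 1556, 2427 and 2792 CPM in the members, again in the order of samples used throughout, and 32.8 to 332 CPM in nonclassical cells. For F13a1 the member levels were 577, 429, 488 and 491 CPM, and no nonclassical sample exceeded 19.6 CPM. Vcan, which encodes a matrix proteoglycan, was at 40.5, 33.5, 88.5 and 43.4 CPM in the members and at most 2.59 CPM in nonclassical cells.

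Genes of the nonclassical subset ran the other way. Nr4a1 was at 57.8 to 111 CPM in the members and 417 to 600 CPM in nonclassical cells, and Spn, the sialoglycoprotein CD43, at 34.5 to 53.6 CPM against 300 to 463 CPM. Eno3, a muscle-type enolase, had no UMI in the young members and 11.2 and 1.67 CPM in the old, where nonclassical cells held 434 to 540 CPM. The receptor for colony stimulating factor, Csf1r, was present in both subsets and lower in the members, at 314, 268, 268 and 300 CPM against 656 to 845 CPM. Lyz2, a gene of the rule, was the most abundant transcript outside ribosomal and mitochondrial genes, at 40693, 32351, 31384 and 31663 CPM, followed by Hbb-bs, the actin-binding peptide gene Tmsb4x, and Hba-a1 and Hba-a2. These levels describe a population chosen on its RNA and carry no test.

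The edges of the rule were not sharp. Ly6c2 had a median of 7.5, 5, 14 and 13.5 UMIs per member cell, and 28 members sat at the minimum of 2. By sample these were 3 of 26, 7 of 39, 9 of 222 and 9 of 122, a larger part of the young members. Those 28 cells had 1043 CPM of Ccr2 and 1362 CPM of Chil3. Just outside, 21 cells with 1 UMI of Ly6c2 had 1174 and 980 CPM of these genes. Over all members the levels were 1427 and 2436 CPM. F13a1 was at 212 CPM in the 28 cells and 489 CPM over all members, and Nr4a1 at 116 and 69.3 CPM. The part of these edge cells in the changes with age was not tested apart from the stricter selection given below. Short of Ly6c2 alone were 82 cells, 17, 21, 23 and 21 by sample, beside 26, 39, 222 and 122 members. The largest groups that missed on 1 condition alone were 188 cells short of Lyz2 and 134 cells with a UMI of Ace, Treml4 or Cd300e. By sample the 188 were 81, 65, 29 and 13, and the 134 were 15, 19, 68 and 32. Of the 134, 78 had a single such UMI. The rule thus left out more cells on Lyz2 and Ly6c2, beside the members, in the young samples. Of the 188 cells short of Lyz2, only 3 held 9 UMIs of it, 0, 0, 2 and 1 by sample. Whether the others were monocytes was not tested. The 134 cells with a UMI of Ace, Treml4 or Cd300e held 895 CPM of Ccr2 and 141 CPM of Nr4a1, values between those of the subsets.

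Of the members, 20 cells went against their label. In 3 cells, 1 in young sample 2 and 2 in old sample 1, the neutrophil granule genes Camp and Ngp reached at least 20 UMIs together. They held 668, 803 and 740 UMIs of S100a8 and no UMI of Ccr2, Csf1r, Fn1 or F13a1. A further 16 cells, 1, 3, 7 and 5 by sample, had haemoglobin genes above 100000 CPM of the cell. The last cell, in young sample 2, held 142 of that sample's 181 Ccl5 UMIs in members and 29 of its 35 Gzma UMIs, both genes of cytotoxic lymphocytes. Comparisons below are given with all 409 cells and, where a call depends on it, with the 389 left.

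**Figure D1:**
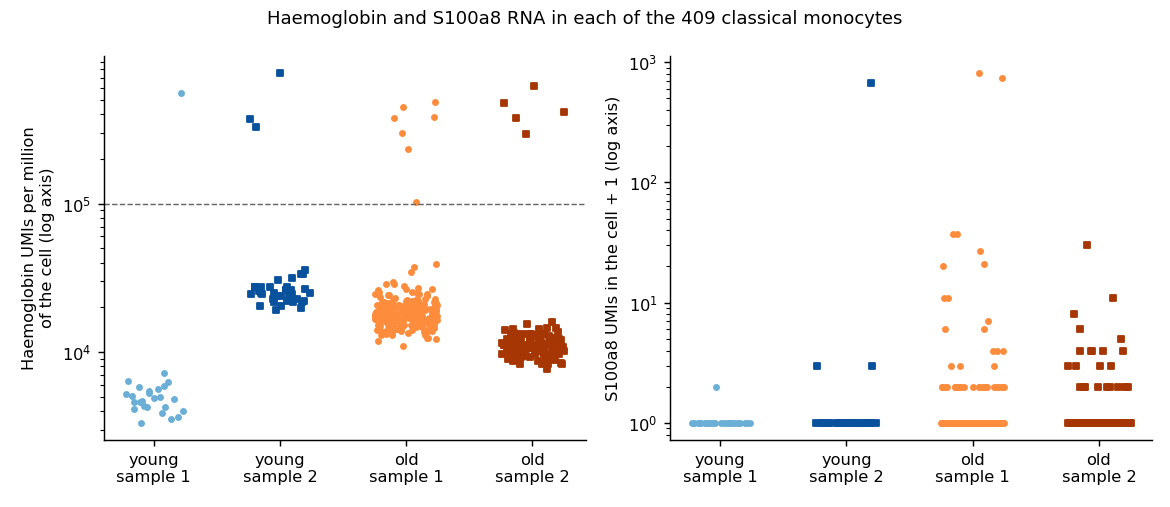
Haemoglobin CPM of the cell (left, log axis, dashed line at 100000) and S100a8 UMIs plus 1 (right, log axis) in each member cell, by sample. Each point is 1 of the 409 cells. A few cells in every sample lie far above the rest for haemoglobin, and 3 cells stand apart for S100a8.

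Classical monocytes made up a larger share of the old blood samples. They were 0.666% of all cells in young sample 1 (exact 95% binomial interval 0.436 to 0.975) and 1.01% in young sample 2 (0.720 to 1.38). The share in old sample 1 was 4.78% (4.19 to 5.44) and in old sample 2 it was 5.58% (4.65 to 6.62). No young interval reached an old one. The mean was 0.839% ± 0.244 (SD, n = 2) for young and 5.18% ± 0.563 (SD, n = 2) for old samples, a difference of 4.34 percentage points, and with 2 pools against 2 the two-sided exact permutation p was 0.33, the smallest this design allows. These intervals cover counting error only.

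A share of all cells moves with every other cell type, so the members were also set against other denominators. Among cells that were neither B, T nor red cells by marker (haemoglobin at most 100000 CPM of the cell), the members were 5.05% and 5.22% in young samples 1 and 2, and 30.0% and 33.8% in old samples 1 and 2. Among classical and nonclassical monocytes together, they were 31.7% (21.9 to 42.9) of young sample 1, 29.1% (21.6 to 37.6) of young sample 2, 61.0% (55.8 to 66.0) of old sample 1 and 72.2% (64.8 to 78.8) of old sample 2. The means were 30.4% ± 1.84 and 66.6% ± 7.92 (SD, n = 2 each), 36.2 percentage points apart, with an exact permutation p of 0.33. Nonclassical cells were the larger subset in both young samples and the smaller one in both old samples. Member cells were deeper in the old libraries, as given above. When each cell was first thinned to 1000 UMIs, with the minimum lowered to 4 for Lyz2 and 1 for Ly6c2, the differences were 4.91 and 34.5 percentage points.

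**Figure D2:**
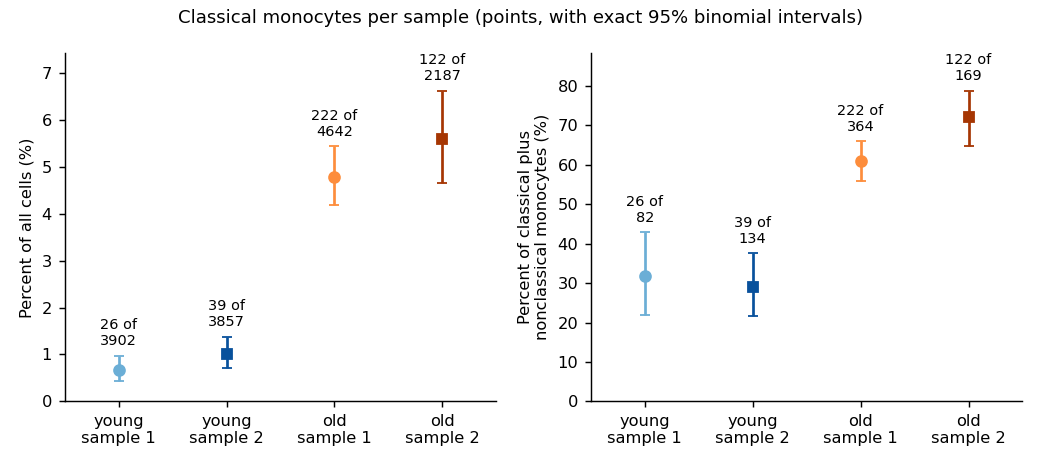
Classical monocytes as a percent of all cells (left) and of classical plus nonclassical monocytes (right) in each sample. Points are the samples, bars the exact 95% binomial intervals, and numbers the cells counted. Both old samples lie above both young samples on each scale.

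Expression with age was compared on UMIs summed over the members of each sample, with edgeR's quasi-likelihood test and Benjamini-Hochberg adjustment at 0.05. Of 3245 genes tested, 22 were higher in the old (0.678% of genes tested) and 10 lower (0.308%), together 0.986%, and 328 had an unadjusted p under 0.05. The ages did not overlap for 31 of the 32 called genes, where 40.3% of all genes tested had ages that did not overlap. The median log2 fold change over all genes was -0.03, close to 0, with 1533 positive and 1712 negative. The gene lists below were chosen with earlier results of these data known. No test was run on a list as a whole, and list counts are to be read beside these values over all genes. Fold changes below are log2, old over young, with the standard error of the fit.

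The calls depended on the cells and libraries included. With the 389 cells left after removal of those rich in RNA of another type, 5 genes passed, all among the 32, and these were Hpgd, Prtn3, Hp, Lgals1 and Aldoa. Leaving out young sample 1 gave 6 calls, young sample 2 gave 16, old sample 1 gave 19 and old sample 2 gave 35, of which 6, 10, 16 and 22 were among the 32. With each cell thinned to 2000 UMIs no gene passed in edgeR's test and 165 of 1838 genes had an unadjusted p under 0.05. For 31 of the 32 genes the direction held in every one of the 18 alternatives that tested them, the exception being Hba-a1.

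**Figure D3:**
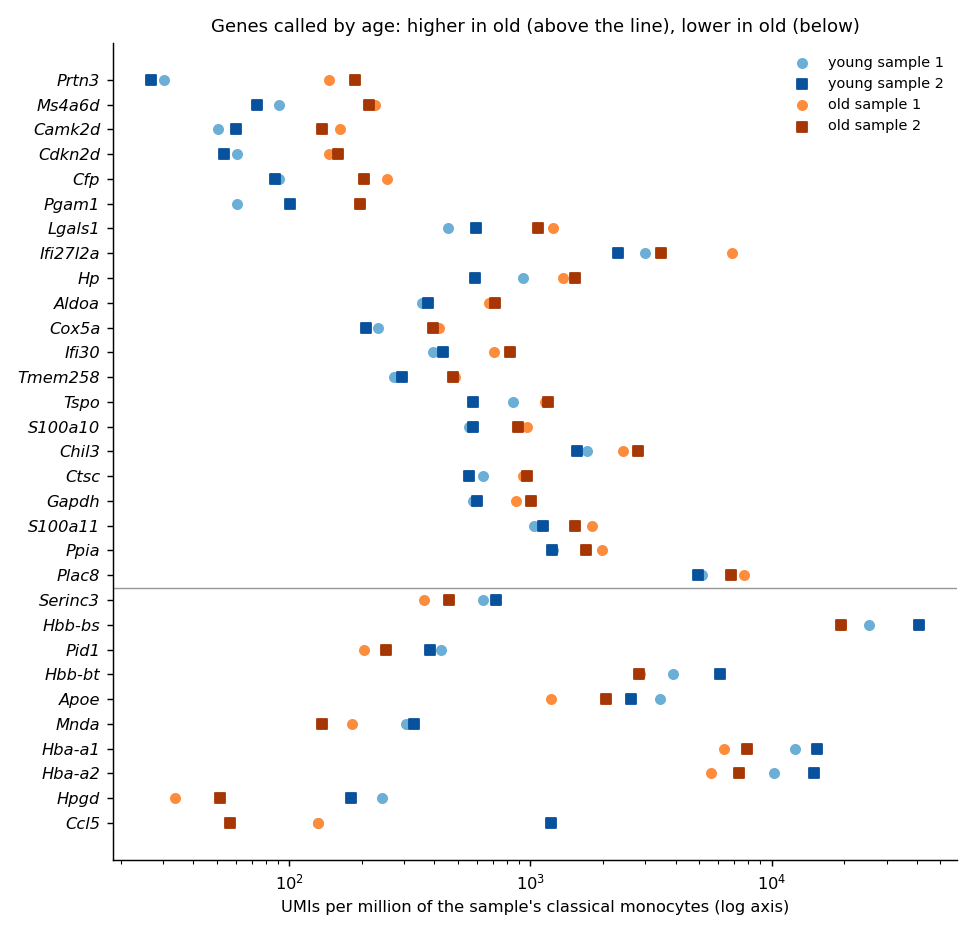
Level of 31 of the 32 genes called by age, in CPM of the sample's classical monocytes (log axis). Each point is 1 sample, and the line separates genes higher in the old from the 10 lower. Among the genes plotted, sample values of the ages overlap for Ccl5 alone.

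Hpgd fell with age. It encodes the dehydrogenase that inactivates prostaglandins. It was at 243 and 181 CPM in the young samples and at 33.6 and 51.7 CPM in the old. Both young samples stood well above both old ones. The log2 fold change was -2.35 (SE 0.32, adjusted p = 0.00132), and -2.47 (adjusted p = 0.00769) with the 389 cells. A UMI of Hpgd was found in 10 of 26 and 13 of 39 young cells and in 25 of 222 and 21 of 122 old cells, so it was sparse at both ages. The share in B cells of these libraries (medians of 2178.5, 2116, 2933 and 3254 UMIs per cell) was at most 0.432%. Without young sample 1 the fold change was -2.16 and the adjusted p 0.165.

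Prtn3 rose with age. Its product, proteinase 3, is a serine protease of neutrophil granules that is made at the promyelocyte stage. Its levels were 30.4 and 26.8 CPM in the young and 146 and 187 CPM in the old. The young samples were close to each other, and both old samples lay above them. The log2 fold change was 2.52 (SE 0.41, adjusted p = 0.00297), and 2.61 (adjusted p = 0.0269) with the 389 cells. These levels rested on 3, 4, 157 and 112 UMIs. Cells with a UMI were 3 of 26 and 4 of 39 against 92 of 222 and 58 of 122. After thinning to 1000 UMIs the shares were 3.85% and 2.56% against 13.1% and 12.3%, and in B cells the unthinned share was at most 0.491%. Without young sample 1 the adjusted p was 0.165, with a fold change of 2.59. The related granule proteases Elane and Ctsg stayed at or below 6.70 CPM in every sample and were too low to test.

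The other neutrophil-like genes gave a mixed picture. Of 20 genes listed for monocytes of granulocyte descent, 19 were measured and 6 tested, of which Prtn3 was the only one called, and the median log2 fold change was 0.03 against -0.03 over all genes. Mmp8, a neutrophil collagenase, was at 60.8, 67.0, 171 and 129 CPM (adjusted p = 0.119). S100a8, one chain of calprotectin, was at 10.1, 4506, 1638 and 145 CPM, and its order followed the 3 granule-rich cells. Without those cells it was at 10.1, 27.4, 201 and 145 CPM, with a UMI in 3.85% and 5.26% of young members and 19.1% and 18.9% of old ones. The shares of B cells with an S100a8 UMI were 1.06%, 1.01%, 3.34% and 0.202%, below the members' shares in each sample. After thinning to 1000 UMIs the members' shares were 0%, 2.63%, 8.64% and 5.74%, and the exact permutation p was 0.33 with either count. Cells with at least 5 S100a8 UMIs numbered 10 in old sample 1 and 4 in old sample 2, with none in either young sample.

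The 10 and 4 old members with at least 5 S100a8 UMIs were set beside the 178 and 99 old members with none, as a description that leaves aside the granule-rich cells. Chil3 was at 3435 against 2142 CPM in old sample 1 and at 4884 against 2564 CPM in old sample 2. Lcn2, an iron-chelating granule protein, was at 443 against 20.2 CPM and at 195 against 27.2 CPM. Mmp8 reached 460 against 139 CPM and 391 against 111 CPM. The MHC class II invariant chain gene Cd74 was lower in them, at 832 against 3189 CPM and 684 against 3175 CPM. Few class II-rich members, described below, raised the levels of the cells without S100a8. Over all old members other than the class II-rich ones, Cd74 was at 1336 and 1196 CPM. S100a9, the partner chain of S100a8, was at 159 against 2.37 CPM in old sample 1 and had no UMI in either set in old sample 2. The cells with at least 5 S100a8 UMIs, a limit that deeper cells reach more easily, had medians of 5316 against 4571.5 UMIs and 5484 against 4586 UMIs.

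Of 22 genes of the classical programme, a list chosen with earlier results of these data known, 17 were tested. Of these, 4 rose with age (Hp, Chil3, Ifi27l2a and Plac8) and none fell, where 0.678% of all genes tested were called higher. The median was 0.34, against -0.03 over all genes. Hp, haptoglobin, which binds free haemoglobin, was at 932, 590, 1363 and 1525 CPM. Both old samples were above the higher young one. The log2 fold change was 0.96 (SE 0.16, adjusted p = 0.00297), and 1.04 (adjusted p = 0.0269) with the 389 cells. Without young sample 2, the lower of the young samples, it was 0.72 (adjusted p = 0.0522). For Chil3, whose levels were given above, the change was 0.68 (SE 0.13, adjusted p = 0.0114). Chil3 did not pass with the 389 cells (0.56, adjusted p = 0.190), without young sample 1 (adjusted p = 0.181) or without old sample 2 (adjusted p = 0.0830).

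Ifi27l2a, an interferon-inducible mitochondrial protein gene, was at 2987, 2320, 6871 and 3485 CPM. Old sample 1 was far above the other 3 samples, and old sample 2 exceeded both young ones by less. The fitted change was 0.98 (SE 0.21, adjusted p = 0.0232), with a range of 0.39 to 1.38 over the alternatives and an adjusted p of 0.183 with the 389 cells. Plac8, a small cysteine-rich protein gene, was at 5134 and 4941 CPM against 7721 and 6799 CPM, a change of 0.53 (SE 0.12, adjusted p = 0.0403), and 0.54 (adjusted p = 0.123) with the 389 cells. Ccr2 and Vcan, which also marked the members above, did not pass. Ccr2 had a change of 0.35 (SE 0.13, adjusted p = 0.296) and Vcan 0.93 (SE 0.54, adjusted p = 0.630).

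Of 20 genes of the nonclassical programme, a list chosen in the same way, 11 were tested in the members. The fold change was negative for 9 of them, where it was negative for 1712 of all 3245 genes. The list median was -0.55. Apoe, the apolipoprotein E gene of lipid transport, was the one called, at 3463 and 2615 CPM in the young and 1218 and 2068 CPM in the old. The lower young sample and the higher old sample were close. The change was -0.88 (SE 0.18, adjusted p = 0.0187), and -0.78 (adjusted p = 0.353) with the 389 cells. It was -0.69 without young sample 1, -0.56 without old sample 1, neither past the threshold, and -1.31 without old sample 2. Cx3cr1, the fractalkine receptor that holds nonclassical cells in the vessels, was at 182, 154, 104 and 127 CPM. Both old samples were below both young ones, and the change of -0.55 (SE 0.27) did not pass (adjusted p = 0.501).

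Cfp, properdin, which stabilises the convertase of the alternative complement pathway, rose with age. It was at 91.1, 87.2, 254 and 204 CPM. Its change was 1.37 (SE 0.28, adjusted p = 0.0187), and the young samples were close to each other. With the 389 cells its adjusted p was 0.0819. Ms4a6d, a membrane-spanning protein gene of myeloid cells, was at 91.1, 73.8, 227 and 214 CPM and changed by 1.44 (SE 0.28, adjusted p = 0.0116). It too did not pass with the 389 cells (adjusted p = 0.0819).

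Among 30 tested genes of adhesion and migration, 3 rose, where 0.678% of all genes tested were called higher. None of the 30 fell, and the median was 0.14. Lgals1, galectin-1, a secreted lectin that binds cell surface sugars, was at 456 and 597 CPM in the young and 1238 and 1073 CPM in the old. The old samples were both above the higher young one by more than the young samples differed. The log2 fold change was 1.10 (SE 0.16, adjusted p = 0.00168), and 1.14 (adjusted p = 0.0269) with the 389 cells. Without young sample 1 it was 0.95 (adjusted p = 0.126). Lgals1 also had a UMI in B cells of the same libraries, in means of 23.1% of young and 45.0% of old B cells, against 74.4% and 89.9% of the members. The calcium-binding protein genes S100a10, the partner of annexin A2, and S100a11 rose with it. S100a10 was at 557, 577, 969 and 891 CPM with a change of 0.71 (SE 0.15, adjusted p = 0.0187). S100a11 was at 1033, 1126, 1800 and 1537 CPM with a change of 0.62 (SE 0.14, adjusted p = 0.0300). With the 389 cells the adjusted p was 0.0926 for S100a10 and 0.0967 for S100a11.

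Of 3 further genes that rose with age, Aldoa, Pgam1 and Gapdh, Aldoa and Gapdh were picked out after their values were seen, and genes of glycolysis were not counted as a list. Aldoa, aldolase A of glycolysis, was at 354 and 375 CPM in the young and 676 and 713 CPM in the old. The spread within each age was small beside the difference. The log2 fold change was 0.91 (SE 0.16, adjusted p = 0.00667), and 0.97 (adjusted p = 0.0476) with the 389 cells. Without young sample 1 the adjusted p was 0.165. Pgam1, a phosphoglycerate mutase, was at 60.8, 101, 196 and 197 CPM and changed by 1.21 (SE 0.29, adjusted p = 0.0496). Gapdh, glyceraldehyde phosphate dehydrogenase, was at 577, 603, 870 and 1005 CPM with a change of 0.65 (SE 0.15, adjusted p = 0.0366). Neither of these last genes passed with the 389 cells.

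Oxidative phosphorylation genes, which encode the nuclear part of the respiratory chain, took a larger share of the members' UMIs in the old. The 89 listed genes together held 2.41% and 2.42% of UMIs in the young members and 2.98% and 2.97% in the old. In these sums the samples of 1 age were nearly equal, and the ages were apart. The sums included the haemoglobin-rich cells, whose part in these shares was not tested. By cell, the median share was 2.38% in young sample 1 and 2.61% in young sample 2, so the young samples differed more. Both old medians were higher, and the lower quartiles were 2.71% in old sample 1 and 2.77% in old sample 2. In nonclassical monocytes of the same libraries the shares of summed UMIs lay between 2.15% and 2.35%, with overlapping ages. Of 77 tested genes in the members, 72 had a positive fold change (93.5%, against 47.2% of all genes tested), 21 had an unadjusted p under 0.05 and all of those were higher in the old. The ages were apart for 53 of the 77, where 40.3% of all genes tested had ages apart. Over all 3245 genes, 328 had an unadjusted p under 0.05, of which 181 were higher in the old. The median of the list was 0.29, against -0.03 over all genes. Only Cox5a, a subunit of cytochrome c oxidase, passed the adjusted threshold, at 233, 208, 419 and 396 CPM with a change of 0.90 (SE 0.19, adjusted p = 0.0264). It did not pass when any 1 of the samples was left out, with values of 0.84 to 0.96, or with the 389 cells (adjusted p = 0.0926). Of 11 tested genes of the mitochondrial genome, none passed, and the median was 0.14. The members were deeper in the old, and the part of depth in these shares was not tested.

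Of 10 tested genes listed for MHC class II and dendritic-like monocytes, 9 had a negative fold change, where 1712 of all 3245 genes were negative. Of the 10, 1 was called lower (0.308% of all genes tested), and the median was -0.39. The called gene was Pid1, which encodes an adaptor protein of insulin signalling. It was at 425 and 382 CPM in the young and 204 and 252 CPM in the old, a change of -0.83 (SE 0.19, adjusted p = 0.0366), and -0.87 (adjusted p = 0.112) with the 389 cells. The class II genes themselves did not pass. H2-Aa was at 567, 925, 564 and 561 CPM with a change of -0.46 (adjusted p = 0.343). H2-Ab1 had -0.42 (adjusted p = 0.282), H2-Eb1 -0.59 (adjusted p = 0.363) and Cd74 -0.31 (adjusted p = 0.404). Young sample 2 was the highest for H2-Aa, and the other 3 samples were close to each other.

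Class II RNA was concentrated in few members. Taking cells with at least 1% of UMIs from the list, there were 3 of 26, 5 of 39, 15 of 222 and 11 of 122. The shares were 11.5% (2.45 to 30.2), 12.8% (4.30 to 27.4), 6.76% (3.83 to 10.9) and 9.02% (4.59 to 15.6), with overlapping intervals and an exact permutation p of 0.33 between ages. In them Cd74 ranged from 18732 to 29941 CPM by sample, against 920 to 1336 CPM in the other members. Their Ccr2 was at 1051, 1945, 1413 and 1471 CPM against 1273, 928, 1470 and 1498 CPM in the rest, higher in young sample 2 and close or lower in the others. Chil3 was lower in them, at 788, 0, 505 and 1095 CPM against 1788 to 2966 CPM. Cd209a, limited by the rule, was at 0, 0, 11.2 and 0 CPM in them. The B cell receptor gene Cd79b was at 131, 216, 168 and 89.7 CPM in these cells and 87.8, 114, 149 and 81.0 CPM in the rest. Cells close to the limit of 1%, on either side of it, numbered 1, 0, 7 and 4. Whether the class II-rich members form a type of their own was not tested.

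MHC class I genes showed no call among 20 tested, with a median of -0.00. B2m, the shared light chain, was at 4587, 4305, 5904 and 4891 CPM, and the class I heavy chain H2-D1 at 2774, 2400, 2599 and 2517 CPM. None of the 38 tested genes of the interferon-stimulated list passed, and the median was -0.25. That list held neither Ifi27l2a, called higher, nor Mnda, called lower, which interferon also induces. The antiviral membrane protein gene Ifitm3 was at 8394, 6940, 8270 and 7316 CPM, and the ages overlapped. Ly6e was at 2258 and 2025 CPM against 3185 and 2812 CPM (adjusted p = 0.0689).

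Inflammatory mediators and sensors had no call among 23 tested (median -0.11). The signalling adaptor gene Tyrobp was at 5863, 4928, 5105 and 5362 CPM, and Alox5ap, the helper protein of leukotriene synthesis, at 1590, 1522, 1708 and 1902 CPM. Fc, lectin and scavenger receptors likewise had none among 22 (median 0.06), with the Fc receptor common chain Fcer1g at 3777, 2910, 3713 and 3481 CPM and the lectin Clec4a3 at 567, 443, 490 and 581 CPM. Of 33 tested lysosomal genes, Ctsc alone was called, with a median of 0.05. Ctsc, the cathepsin C that activates granule serine proteases, was at 638, 557, 934 and 965 CPM, a change of 0.68 (SE 0.14, adjusted p = 0.0216). With the 389 cells its adjusted p was 0.0967.

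**Figure D4:**
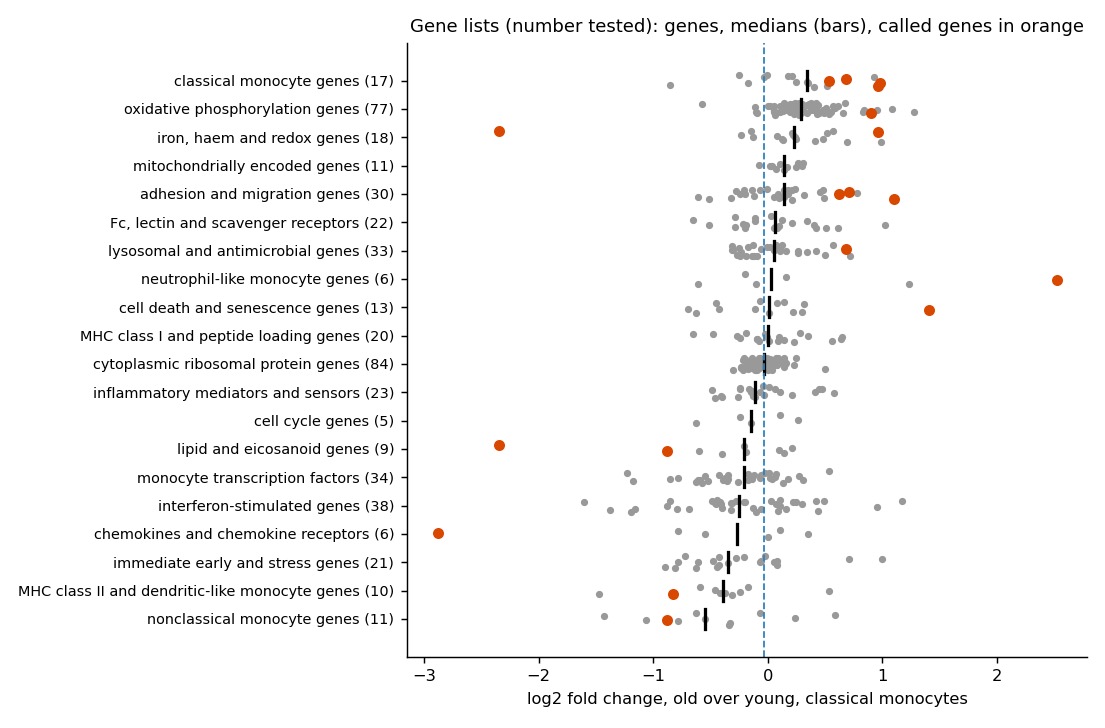
Log2 fold change with age of every tested gene of the 20 lists plotted, marker lists of other cell types not among them, in classical monocytes, with the number tested in brackets. Grey points are genes, orange points genes called at adjusted p under 0.05, black bars list medians, and the dashed line is the median of all 3245 genes, -0.03. Medians of the lists plotted run from 0.34 for classical to -0.55 for nonclassical monocyte genes.

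Transcription factors of monocytes had no call among 34 tested, with 24 negative fold changes and a median of -0.21. Immediate early and stress genes had none among 21, with 16 negative and a median of -0.35. Over all genes tested, 1712 of 3245 were negative. Fos was at 881, 664, 521 and 616 CPM (adjusted p = 0.296), and both old samples were below the young ones. Junb was at 1073, 603, 831 and 766 CPM and the heat shock cognate gene Hspa8 at 1883, 1703, 1693 and 2021 CPM, with overlapping ages.

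Of 13 tested genes of cell death and senescence, 1 rose and the median was 0.01. Cdkn2d, which encodes the cell cycle inhibitor p19INK4d, was at 60.8 and 53.6 CPM in the young and 146 and 159 CPM in the old. The change was 1.41 (SE 0.33, adjusted p = 0.0403), and 1.40 (adjusted p = 0.138) with the 389 cells. Cdkn1a, the inhibitor p21, was at 40.5, 46.9, 52.2 and 45.1 CPM, with overlapping ages. Cdkn2a, the source of p16INK4a, had no UMI in any of the 409 cells. No gene of the cell cycle list passed among 5 tested (median -0.15), led by H2afz at 2015, 1448, 1407 and 1494 CPM and Hmgb2 at 719, 436, 467 and 544 CPM. Ribosomal protein genes had none among 84 (median -0.03), with Rps29 at 6095, 7382, 6215 and 7219 CPM and Rpl41 at 5832, 5860, 6260 and 6846 CPM. In the mitochondrial genome mt-Atp6 was at 7179, 7516, 8030 and 7890 CPM and mt-Co3 at 5741, 5853, 6943 and 6834 CPM.

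The remaining called genes named by size were Camk2d, Mnda and Serinc3. Camk2d, a subunit of the calmodulin-dependent kinase II, was at 50.6, 60.3, 163 and 137 CPM and rose by 1.41 (SE 0.34, adjusted p = 0.0468). Mnda, an interferon-inducible nuclear protein gene of myeloid cells, was at 304, 329, 183 and 137 CPM, a change of -0.97 (SE 0.22, adjusted p = 0.0352). Serinc3, a membrane protein gene, was at 638, 717, 363 and 459 CPM, a change of -0.75 (SE 0.17, adjusted p = 0.0300). The ages were apart for each of them, and none passed with the 389 cells. Of 18 tested genes of iron, haem and redox balance, Hp and Hpgd were called in opposite directions and the median was 0.23. Of 9 genes of lipid and eicosanoid metabolism, Hpgd and Apoe were called, both lower, with a median of -0.21.

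Genes of red cells and cytotoxic lymphocytes were among those called in the members. None of these calls held with the 389 cells. Of 6 tested red cell genes 4 were called lower, Hba-a1, Hba-a2, Hbb-bt and Hbb-bs, among them Hba-a1 at 12474, 15468, 6339 and 7914 CPM with a change of -0.98 (SE 0.15, adjusted p = 0.00168). With the 389 cells this change was 0.02 (adjusted p = 0.999). Haemoglobin genes summed to 51932, 77549, 34193 and 37521 CPM over all members, and to 4760, 24769, 17820 and 10901 CPM over the 389 cells. The median haemoglobin level of a member, 4874, 25104, 17817 and 10962 CPM, followed that of B cells in the same library, 4814, 29337, 20022 and 11572 CPM. Ccl5, a chemokine of cytotoxic lymphocytes, was at 132, 1214, 132 and 56.7 CPM, the only call among 6 tested chemokines and receptors, with the change of -2.88 (SE 0.47, adjusted p = 0.00297) carried by the single cell described above. Without young sample 2 it was -0.30 (adjusted p = 0.985), and with the 389 cells -0.89 (adjusted p = 0.618).

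All 10 platelet markers were at 0 in the young members, and in the old they summed to 379 and 279 CPM. Ppbp, a platelet chemokine gene, had a UMI in 72 of 222 and 35 of 122 old members. None of the 26 and 39 young members had one, where the exact 95% limits were 13.2% and 9.03%. The B cells of these libraries showed a like split, where the shares with Ppbp were 0% and 0.336% at the young age and 25.6% and 19.1% at the old. Without the 54 and 32 old members that held at least 2 platelet markers, 22 genes were higher and 10 lower, and 31 of these were among the 32. Markers of T and NK cells summed to 172, 1636, 212 and 98.5 CPM, and those of neutrophils to 192, 9695, 3921 and 389 CPM, with Ly6g and Cxcr2 at 0 in every sample but young sample 2. Markers of B cells summed to 122, 194, 280 and 123 CPM, led by Cd79b at 91.1, 127, 149 and 81.8 CPM. Markers of dendritic cells were led by Bst2 at 304, 241, 327 and 244 CPM and Ly6d at 60.8, 93.9, 115 and 45.1 CPM, and of the neutrophil markers Csf3r was at 60.8, 40.2, 76.4 and 73.4 CPM. Basophil markers summed to at most 13.4 CPM, with Ms4a2 at 0 throughout. The part of these other cells in the changes of monocyte genes was not tested beyond the values given.

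Nonclassical monocytes of the same samples offered a comparison of the age effect itself. Tested alone, they gave 4 calls among 2661 genes (0.150%), including Hp and Ifi27l2a. The test of the age by subset term, in edgeR with sample as a term, covered 2370 genes and called 15 (0.633%), of which 13 were negative, meaning a lower fold change with age in classical than in nonclassical cells. The 4 with the smallest adjusted p were the haemoglobin genes Hbb-bs, Hba-a2, Hbb-bt and Hba-a1, with differences of -2.73 (adjusted p = 6.9e-07), -3.25 (adjusted p = 3.1e-06), -3.15 (adjusted p = 4.2e-06) and -3.33 (adjusted p = 5.7e-05). With cells rich in RNA of another type removed from both subsets, 7 genes passed, of which 5 were among the 15, and no haemoglobin gene was among them. Leaving out 1 sample gave 13 (young sample 1), 8 (young sample 2), 12 (old sample 1) and 10 (old sample 2) calls.

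Several genes of the age comparison also differed between the subsets, and these are named after their values were seen. Lgals1 rose in classical cells but was at 170, 179, 204 and 84.7 CPM in nonclassical cells, a difference in log2 fold change of 1.10 (adjusted p = 0.0314). With cells rich in RNA of another type removed its adjusted p was 0.0636. Hpgd was at 476, 335, 171 and 248 CPM in nonclassical cells, above its classical level in each sample, and its fold change was lower in the classical subset by -1.51 (adjusted p = 0.0126). Hp was at 189, 160, 602 and 469 CPM in nonclassical cells, below its classical level throughout. Its fold change there was larger, with a difference of -0.83 (adjusted p = 0.0480). With cells rich in RNA of another type removed the Hp difference was -0.70 (adjusted p = 0.368). The share of B cells with an Hp UMI was also higher in the old, as given above. The part of Hp RNA from other cells in the nonclassical change was not tested. Apoe, at 6416, 4452, 3710 and 4998 CPM in nonclassical cells, differed by -0.76 (adjusted p = 0.00296). H2-Ab1, at 352, 656, 613 and 652 CPM there, differed by -0.79 (adjusted p = 0.0377), though its change passed in neither subset alone, and by -0.61 (adjusted p = 0.361) with those cells removed.

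**Figure D5:**
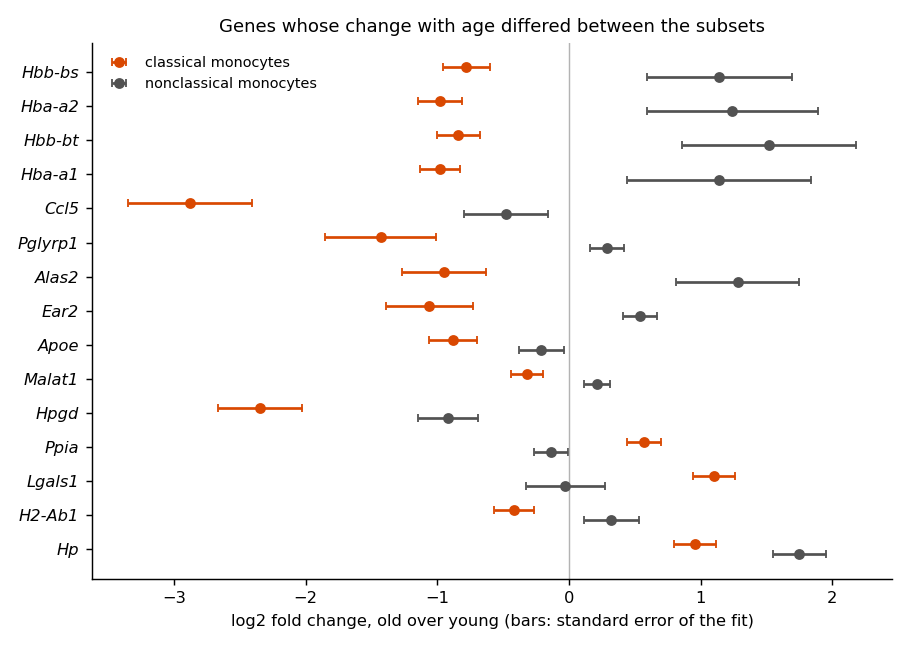
Log2 fold change with age, old over young, of the 15 genes whose change differed between the subsets. Orange points are classical and grey points nonclassical monocytes, and bars are standard errors of each subset's own fit. The haemoglobin genes lie on opposite sides of 0 in the subsets.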

How the data were processed

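Per the labels and the study's methods, the authors aligned 10x 3′ reads to mm10 with Cell Ranger, aggregated the libraries, filtered cells on genes detected and mitochondrial share, and used Seurat 2.3.0. They deposited whole-number UMI counts per gene and cell, used here unchanged, with the sample of each cell taken from the deposited cell table. The sources used here do not say whether aggregation equalised depth. Members and gene lists were chosen with earlier results of these data known.

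UMIs of the members were summed per sample, giving 98763 to 1072930 per sum, and tested between ages with the quasi-likelihood test of edgeR 4.0.16 (R 4.3.3), TMM scaling, Benjamini-Hochberg adjustment at 0.05, no replicate block. Genes needed a UMI in at least 10% of members of each age. The 13 genes of the selection rule stayed in library sizes and were not tested. Cells were not replicates. Standard errors are the fold change divided by the root of the F statistic. The age by subset test used the classical and nonclassical sums of each sample. Shares were compared by two-sided exact permutation tests with exact binomial intervals (scipy 1.17.1), which cover counting error only. No doublet caller was run, and alternatives left out the deepest cells and cells rich in RNA of other types. DESeq2 1.42.0 was an alternative. The scripts were tested on simulated data.

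Named genes were the selection and marker genes, the 10 largest changes per direction among called genes whose ages were apart, called members of each list (at most 4, or the 2 most abundant where none was called), the 4 leading age by subset genes, the 5 most abundant genes, and 6 genes named by the study. Some of these genes are not reported here.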

Additional observations from a re-analysis of the deposited data

Results flagged for a closer look

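For 15 genes the test of the difference between classical and nonclassical monocytes in the change with age passed (edgeR, adjusted p under 0.05). As differences in log2 fold change, classical minus nonclassical, they were Hbb-bs -2.73, Hba-a2 -3.25, Hbb-bt -3.15, Hba-a1 -3.33 and the haem synthesis gene Alas2 -2.33, all red cell genes. Ccl5 differed by -2.41, and 142 of its 181 UMIs in the members of young sample 2 came from 1 cell. The antibacterial peptidoglycan receptor gene Pglyrp1 differed by -1.78. It was at 60.8, 463, 136 and 73.4 CPM in classical and 1715, 1400, 1872 and 1675 CPM in nonclassical cells, and without young sample 2 the difference was 0.62. The eosinophil-type ribonuclease gene Ear2 differed by -1.62, at 101, 134, 61.5 and 53.4 CPM in classical and 887, 857, 1130 and 1271 CPM in nonclassical cells. Apoe differed by -0.76, the nuclear RNA Malat1 by -0.59, Hpgd by -1.51, H2-Ab1 by -0.79 and Hp by -0.83. The positive differences were Ppia, cyclophilin A, at 0.66 and Lgals1 at 1.10. With cells rich in RNA of another type removed from both subsets, Apoe, Ear2, Hpgd, Malat1 and Ppia passed among these 15.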

How the results depend on the processing

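The age comparison called 32 genes. It called 12 with DESeq2 (adjusted p was NA for 2831 genes), 13 with edgeR's own low-count filter, 88 with no filter, 6 to 35 without 1 sample, 57 with the replicate block, 20 with the stricter selection, 20 with the depth-free selection, 0 with cells thinned to 2000 UMIs, 5 without the 5% deepest cells, 7 without cells with an S100a8 UMI, 5 without cells rich in RNA of another type and 203 with classical and nonclassical cells summed. The age by subset test called 15 genes, 8 to 13 without 1 sample, 6 with thinned cells and 7 without cells rich in RNA of another type. Same-numbered samples had deviations correlated at -0.058 over 3245 genes, with only 2 pairs, so the number was not taken as a pairing. Of 854 gene-level repeats, 553 kept direction and call, 295 lost the call and 6 reversed. The reversals were Hba-a1, at 0.04 without the deepest cells and 0.02 without cells rich in RNA of another type, and, without young sample 2, H2-Aa at 0.08 (-0.73 to 0.08 without 1 sample), H2-Eb1 at 0.30 (-0.98 to 0.30) and the subset differences of Ccl5 at 0.01 (-2.98 to 0.01) and Pglyrp1 at 0.62 (-2.51 to 0.62). The cause of these changes was not tested. Shares kept their direction, at 3.94 to 4.74 and 30.6 to 41.8 percentage points without 1 sample. Among cells other than B, T and red cells, the planned haemoglobin limit of 20000 CPM gave 34.1 points and left 36 cells in young sample 2, and the limit of 100000 gave 26.8. The planned removal of cells with platelet markers or over 20000 CPM of haemoglobin was not run as it left 2 cells in young sample 2, and platelet and red cell filters were applied apart. Alternatives on RNA of other types, granule-gene cells, S100a8 cells and the sum of subsets were chosen after seeing the data. With 26 and 39 young cells, genes below about 10% of cells were not tested.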
